A study of Mus musculus with 12 samples.

Results

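Expression of 10 genes of fatty acid uptake and oxidation was followed across libraries labelled as endothelial cells, from the bone marrow and the lung of leukaemic and control mice. The genes were taken by symbol from the 55291 symbols counted in every library: Pdk4, Angptl4, Lpl, Gpihbp1, Cd36, Fabp4, Fabp5, Acsl1, Cpt1a and Acadl. All 10 had enough counts to be tested.

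Acute myeloid leukaemia (AML) is a cancer of blood-forming cells that grows in the bone marrow and can seed other organs. The 12 libraries formed 4 groups of 3. Marrow AML and lung AML came from VECadCre-tdTomato mice, which carry a Cre recombinase driven by the promoter of Cdh5 (VE-cadherin) and a red fluorescent reporter, after transplantation with AML cells of the genotype Trp53 R172H/delta, in which the tumour suppressor Trp53 is mutant on 1 chromosome and deleted on the other. Marrow control and lung control came from normal mice of the same VECadCre-tdTomato line that had received no leukaemia cells, so the reporter was shared by all groups. The labels call the sampled cells endothelial and positive for VE-cadherin, and neither age nor sex nor the time after transplantation is given. The labels do not say that the 3 libraries of a group came from separate mice, so the p-values reflect only how these samples varied, which may be technical. Totals per library lay between 12.8 and 39.2 M counts.

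The labelled cell type was checked against 20 pan-endothelial genes. They held 0.0427% to 0.0483% of the counts in marrow AML, 0.0247% to 0.0375% in marrow control, 0.0370% to 0.127% in lung AML and 0.380% to 1.30% in lung control. Cdh5 itself averaged 0.634 ± 0.291 CPM (counts scaled to library size by TMM; SD, n = 3) in marrow AML, 4.91 ± 1.51 CPM in marrow control, 15.9 ± 14.4 CPM in lung AML and 188 ± 143 CPM in lung control. Genes of other cells were far more abundant: 16 lung epithelium genes held 21.4% to 23.2% of lung AML and 15.9% to 19.7% of lung control libraries, and 14 erythroid genes held 0.142% to 0.642% of marrow AML and 2.51% to 2.72% of marrow control libraries. These markers bear out the labelled cell type only weakly, and the libraries are called here by organ and leukaemia. The levels given here are those of the whole RNA samples, in which fewer cells of a type and less RNA per cell cannot be told apart.

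Endothelial cells stand between the blood and the fatty acids that tissues burn or store. Triglyceride-rich lipoproteins are cut by lipoprotein lipase (Lpl), which the membrane anchor Gpihbp1 carries across capillary endothelium and Angptl4 inactivates. The fatty acids released are taken up with the help of the scavenger receptor Cd36, bound in the cytoplasm by Fabp4 and Fabp5, joined to coenzyme A by Acsl1, passed into mitochondria by Cpt1a and shortened by acyl-CoA dehydrogenases such as Acadl. Pdk4, a kinase that inactivates the pyruvate dehydrogenase complex, turns mitochondria from glucose-derived pyruvate to fatty acids, and Pdk4, Angptl4, Fabp4, Cd36, Acsl1 and Cpt1a are textbook targets of the PPAR family of fatty-acid-sensing nuclear receptors.

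The sequences just before the start sites of Pdk4, Acsl1, Cpt1a and Acadl are shown because the results set a gene that was higher with AML in both organs beside 3 that were lower with AML in the marrow. Each line gives the 250 bases before a RefSeq start on GRCm38.p6, written 5′ to 3′ on the strand of the gene. RefSeq starts can differ from those of the GENCODE gene spans given below. The window of Cpt1a lies inside its gene span, and that of Pdk4 overlaps its gene span. Capitals mark matches, on either strand, to any of 5 motifs: AGGTCA, the core read by PPARs and other nuclear receptors; AGGTCANAGGTCA, its direct repeat, which contains it; ACGTG, a core read by hypoxia-inducible factors; AGAACA, a core read by the glucocorticoid receptor; and GGGCGG, the GC box read by Sp1.
Pdk4 (chr6:5496279-5496528, minus strand): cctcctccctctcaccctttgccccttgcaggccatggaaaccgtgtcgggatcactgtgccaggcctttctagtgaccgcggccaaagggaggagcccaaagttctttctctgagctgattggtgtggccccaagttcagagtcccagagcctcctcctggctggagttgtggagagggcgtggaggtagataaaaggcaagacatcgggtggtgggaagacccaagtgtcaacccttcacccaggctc
Acsl1 (chr8:46470787-46471036, plus strand): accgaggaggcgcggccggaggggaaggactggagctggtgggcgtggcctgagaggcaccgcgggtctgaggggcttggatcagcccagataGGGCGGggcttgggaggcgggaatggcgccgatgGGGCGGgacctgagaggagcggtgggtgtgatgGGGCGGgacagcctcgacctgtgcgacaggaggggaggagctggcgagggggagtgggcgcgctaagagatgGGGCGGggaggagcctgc
Cpt1a (chr19:3323051-3323300, plus strand): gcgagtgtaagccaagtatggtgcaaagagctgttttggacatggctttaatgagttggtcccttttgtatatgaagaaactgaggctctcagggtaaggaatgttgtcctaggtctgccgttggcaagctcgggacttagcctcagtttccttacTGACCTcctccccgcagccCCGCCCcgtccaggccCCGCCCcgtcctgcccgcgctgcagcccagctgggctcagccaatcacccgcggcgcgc
Acadl (chr1:66863310-66863559, minus strand): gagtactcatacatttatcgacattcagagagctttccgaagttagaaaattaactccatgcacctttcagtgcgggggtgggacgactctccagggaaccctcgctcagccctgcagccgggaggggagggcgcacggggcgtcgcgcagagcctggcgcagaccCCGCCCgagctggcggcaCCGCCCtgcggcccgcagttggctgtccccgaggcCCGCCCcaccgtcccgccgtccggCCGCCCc

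Pdk4 held none of the 5 motifs in this window. Acadl and this start of Acsl1 held 4 GC boxes each, and Cpt1a held 2 GC boxes and a copy of AGGTCA. The second start of Acsl1 in the RefSeq table held no match, and Cd36, the fifth gene of the set that the table covers, held 2 GC boxes and a copy of AGGTCA. Among all 32851 promoters of the table, 32.7% held the GC box, 14.0% AGGTCA, 16.1% AGAACA, 16.6% ACGTG and 0.0335% the direct repeat. A match describes the letters and not a bound site.

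The first question was how the genes differed between leukaemic and control marrow. By the edgeR quasi-likelihood test, 4 of the 10 were higher in marrow AML (Pdk4, Angptl4, Lpl and Fabp4), 3 were lower (Acsl1, Cpt1a and Acadl) and 3 did not pass an adjusted p of 0.05. The background was broad: of 18147 genes tested, 43.8% passed, 20.4% as higher and 23.5% as lower, and the median log2 fold change was -0.11 against -0.04 for the 10. In the lung, 2 of the 10 were higher in AML (Pdk4 and Angptl4) and 0 were lower, while 2.33% of all genes passed, 1.17% as higher and 1.16% as lower. At an unadjusted p under 0.05, as with DESeq2 and with limma-voom, 3 were higher and 1, Gpihbp1, was lower. The lung background depended on single libraries, since the 423 genes called there became 72 without lung AML library 1 and 83 without lung AML library 3, 116 without lung control library 2, 218 without lung control library 1 and 248 without lung AML library 2.

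**Figure D1:**
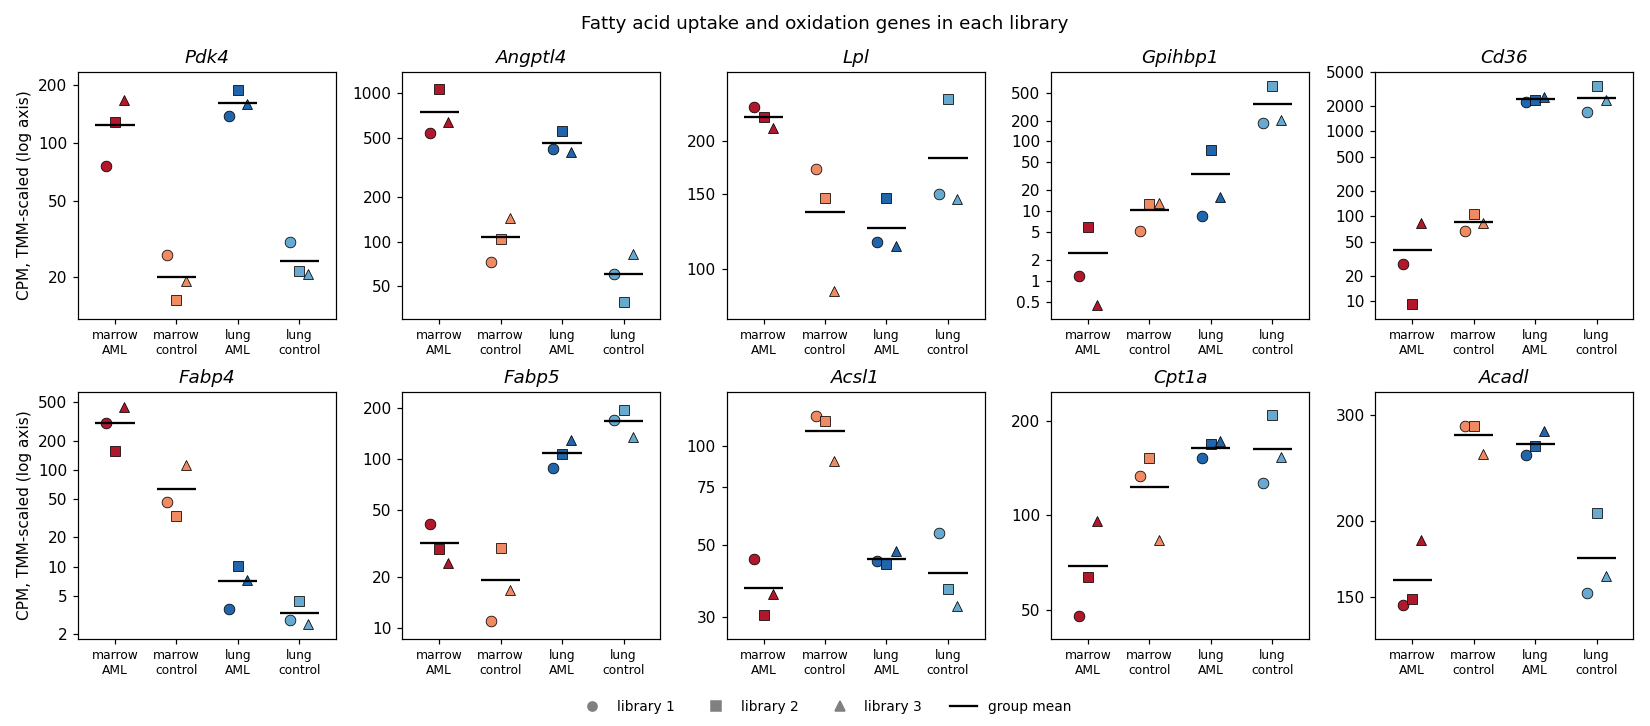
Level of each of the 10 genes in every library, in TMM-scaled CPM on a log axis, for marrow AML, marrow control, lung AML and lung control. Points are libraries and bars are group means of 3. Pdk4 and Angptl4 lie higher in every AML library than in any control library, Cd36 and Fabp5 are highest in the lung, and Fabp4 is highest in the marrow.

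Pdk4 (chr6:5483351-5496309, minus strand, GRCm38) stood higher with AML in both organs. It stood at 76.1, 129 and 168 CPM in marrow AML libraries 1, 2 and 3, against 26.0, 15.1 and 19.0 CPM in marrow control. In the lung it stood at 138, 189 and 160.2 CPM in AML, against 30.5, 21.4 and 20.7 CPM in control. Every AML library lay above every control library, and the control levels of the 2 organs overlapped. The level was 6.19-fold higher in marrow AML (log2 fold change 2.63 ± 0.31, SE; edgeR adjusted p = 0.000101) and 6.71-fold higher in lung AML (2.75 ± 0.31; adjusted p = 0.00250). In the lung it ranked 16 of all 18147 genes by p.

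Angptl4 (chr17:33773750-33781830, minus strand), the secreted inhibitor of lipoprotein lipase, followed the same pattern at a higher level. Marrow AML libraries held 541, 1072 and 643 CPM, against 73.3, 104 and 145 CPM in marrow control. Lung AML libraries held 418, 554 and 404 CPM, against 60.7, 39.2 and 81.8 CPM in lung control. The groups did not overlap in either organ. The difference was 7.01-fold in the marrow (log2 fold change 2.81 ± 0.36; edgeR adjusted p = 0.000167) and 7.57-fold in the lung (2.92 ± 0.36; adjusted p = 0.00366), where it ranked 26 by p. Both genes kept their calls in both organs under all 15 alternative settings of each comparison, leaving out each library included. A list of markers named for lung lipofibroblasts, which store lipid, had a larger summed share beside both genes. The 10 genes of that list held 0.0428% to 0.0667% of counts in marrow AML and 0.0201% to 0.0271% in marrow control, and 0.297% to 0.375% in lung AML and 0.0856% to 0.165% in lung control. By edgeR, 3 of them (Pdgfra, Itga8 and Limch1) were higher in marrow AML and 1 (Pdgfra) in lung AML. The list is named for cells of the lung, and Pdgfra is also in the list of marrow reticular stroma. Plin2, the lipid droplet coat of the list, passed in neither organ. Inmt, a methyltransferase of the list, had 158969 counts over the lung AML libraries and 33616 over lung control, without passing the test (log2 fold change 2.13 ± 1.26; edgeR adjusted p = 0.471). Other lists also had larger summed shares with AML in 1 organ. The 12 neutrophil genes held 0.0502% to 0.0701% in lung AML and 0.0286% to 0.0450% in lung control. By edgeR 0 of them passed there, and in the marrow their shares overlapped. Lung epithelium genes, given above, had larger shares in lung AML. Pericyte and pan-leukocyte genes, given below, had larger shares in marrow AML. The part of any of these cells in the levels of Pdk4 and Angptl4 was not tested.

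The size of the AML effect on these 2 genes was compared between organs with an interaction term. For Pdk4 the marrow effect minus the lung effect was -0.12 ± 0.41 on the log2 scale (95% interval -1.03 to 0.79; edgeR adjusted p = 0.871). For Angptl4 it was -0.11 ± 0.48 (95% interval -1.16 to 0.93; adjusted p = 0.896). A difference between the organs was not detected, which does not show that the effects were alike within these intervals.

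**Figure D2:**
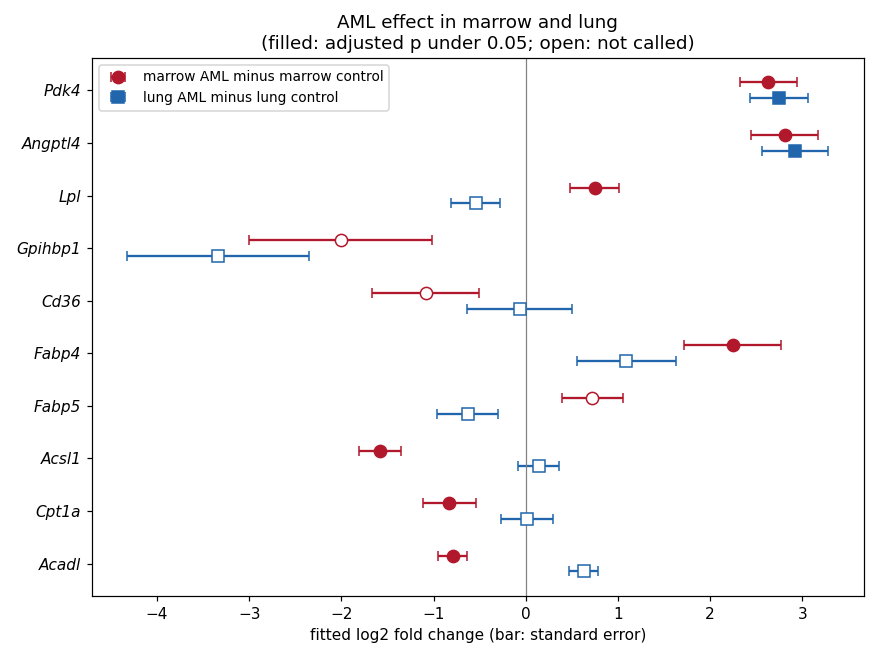
Fitted log2 fold change of each of the 10 genes for marrow AML minus marrow control (red circles) and lung AML minus lung control (blue squares), with bars of 1 standard error and filled symbols for an adjusted p under 0.05. Pdk4 and Angptl4 are filled on the right in both organs, while Acsl1, Cpt1a and Acadl are filled on the left in the marrow.

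The lipase itself differed less between the groups than its inhibitor. Lpl (chr8:68880491-68907448, plus strand) stood at 241, 229 and 215 CPM in marrow AML, against 172, 147 and 88.4 CPM in marrow control. The AML libraries all lay above the controls, and the level was 1.68-fold higher (log2 fold change 0.75 ± 0.27; edgeR adjusted p = 0.0401). This call was weak: of the 6 fits that leave out 1 marrow library, it held only without marrow control library 1 (adjusted p = 0.0269). The adjusted p was 0.0777 without marrow control library 2, 0.131 without marrow control library 3, and 0.0802, 0.0730 and 0.0541 without marrow AML libraries 1, 2 and 3. With limma-voom it was 0.119. In the lung, Lpl stood at 115, 147 and 113 CPM in AML, against 149.8, 251 and 146 CPM in control (log2 fold change -0.55 ± 0.27; adjusted p = 0.345), and the groups overlapped.

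Gpihbp1 (chr15:75596628-75599481, plus strand), the capillary anchor of the lipase, was highest in lung control. It stood at 8.59, 76.4 and 16.1 CPM in lung AML, against 186, 632 and 203 CPM in lung control. All lung AML libraries lay below all lung controls, but the spread within each group was wide and the fitted log2 fold change of -3.34 ± 0.99 had an adjusted p of 0.109 by edgeR. It was -4.72 (adjusted p = 0.0633) without lung AML library 2 and -2.53 (adjusted p = 0.313) without lung control library 2, the highest library of each group. It passed under 3 of 15 alternatives: DESeq2 (adjusted p = 0.00480), limma-voom with quality weights (adjusted p = 0.00320) and a replicate block. It passed in 0 of the 6 fits that leave out a lung library. In the marrow it was scarce, with 1.17, 5.96 and 0.454 CPM in AML, against 5.12, 12.9 and 13.1 CPM in control (log2 fold change -2.01 ± 0.99; edgeR adjusted p = 0.122), and it passed only without marrow AML library 2 (-3.75; adjusted p = 0.0229) or with a replicate block. Endothelial markers differed beside it. By edgeR, 0 of 20 pan-endothelial genes were higher and 12 were lower in lung AML (0 and 20 at an unadjusted p under 0.05). In marrow AML 2 were higher and 8 lower. Their summed share, given above, was lower in every lung AML library than in any lung control. In the marrow it went the other way, with 0.0427% to 0.0483% in AML and 0.0247% to 0.0375% in control. Cdh5 fell with AML in the lung (log2 fold change -3.56 ± 0.74; adjusted p = 0.0325) and in the marrow (-2.90 ± 0.82; adjusted p = 0.0141), while Pecam1, an adhesion molecule of endothelium, had -2.87 ± 0.80 (adjusted p = 0.0919) in the lung and -1.55 ± 0.80 (adjusted p = 0.139) in the marrow. The part of the endothelial share in the values of Gpihbp1 was not tested.

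**Figure D3:**
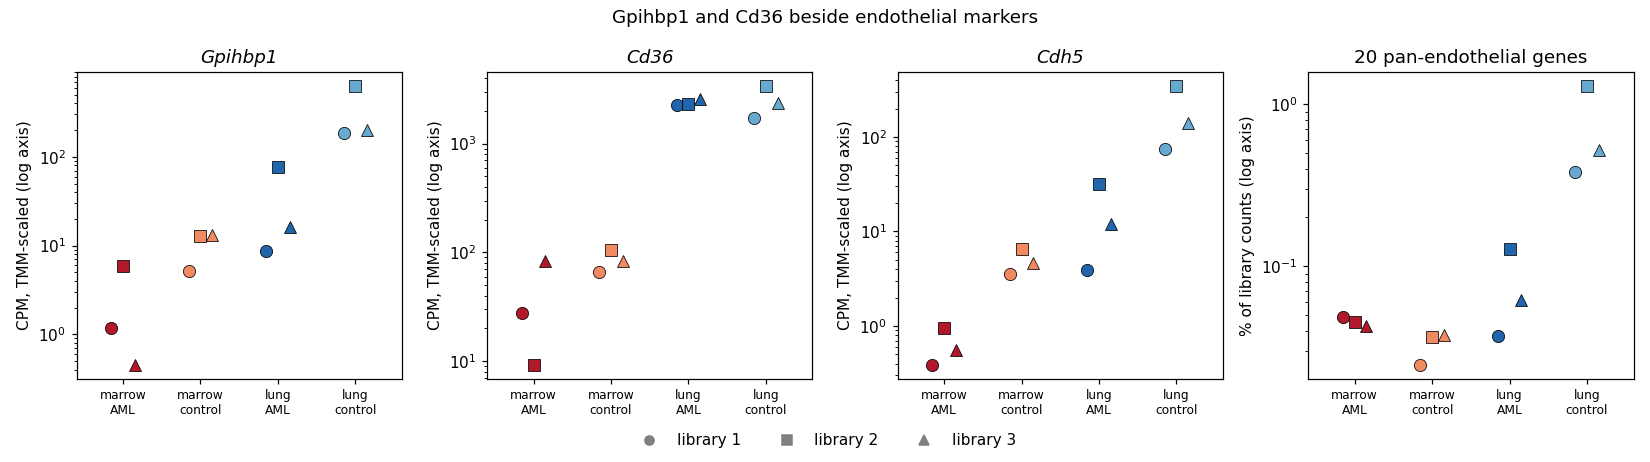
Gpihbp1 and Cd36 beside Cdh5 (TMM-scaled CPM) and the summed share of 20 pan-endothelial genes (percent of counts), each on a log axis, in every library. In the lung, library 2 is the highest and library 1 the lowest of its group for Gpihbp1, Cdh5 and the summed share alike, and Cd36 has this order in lung control but not in lung AML. Cd36 stays between 1707 and 3399 CPM in all 6 lung libraries.

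Cd36 (chr5:17781690-17888801, minus strand), the fatty acid receptor, was the most abundant of the 10 genes in the lung. It stood at 2243, 2327 and 2570.2 CPM in lung AML, against 1707, 3399 and 2375 CPM in lung control. The groups overlapped although Cdh5 did not, and the log2 fold change of Cd36 was -0.07 ± 0.57 (95% interval -1.32 to 1.19; edgeR adjusted p = 0.984). Macrophages also carry Cd36, and 14 monocyte and macrophage genes held 2.56% to 3.13% of the counts in lung AML and 2.63% to 3.11% in lung control. Other lists held far less. The 12 pan-leukocyte genes held 0.0441% to 0.0593% in lung AML and 0.0567% to 0.0752% in lung control. The 12 alveolar macrophage genes held 0.0261% to 0.0314% in lung AML and 0.0234% to 0.0600% in lung control. These lists are made of different genes, so none of the shares can be read as an amount of macrophage RNA. The part of macrophages in the level of Cd36 was not tested. In the marrow, Cd36 stood at 27.8, 9.28 and 83.3 CPM in AML, against 66.5, 106 and 83.3 CPM in control (log2 fold change -1.09 ± 0.58; adjusted p = 0.152). Marrow AML library 3 matched the controls and decided this value, since without it the log2 fold change was -2.21 (adjusted p = 0.00326). With limma-voom, which gives divergent libraries less weight, it was -1.93 (adjusted p = 0.0270).

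The 2 cytoplasmic binding proteins parted by organ. Fabp4 (chr3:10204088-10208576, minus strand), the form best known from adipocytes, macrophages and capillary endothelium, stood at 303, 158 and 449 CPM in marrow AML, against 46.2, 33.6 and 112 CPM in marrow control. The groups did not overlap, and the level was 4.74-fold higher (log2 fold change 2.24 ± 0.53; edgeR adjusted p = 0.00557). Without marrow control library 3, the highest of the controls, the log2 fold change was 2.92 (adjusted p = 0.00238). In the lung Fabp4 was scarce, with 3.62, 10.2 and 7.24 CPM in AML, against 2.83, 4.46 and 2.55 CPM in control (1.09 ± 0.54; adjusted p = 0.354).

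Fabp5 (chr3:10012548-10016607, plus strand), the epidermal form, was higher in the lung groups, with 88.4, 106 and 129.8 CPM in AML, against 170.1, 196 and 136 CPM in control. The lung AML libraries lay below the controls without passing the test (log2 fold change -0.63 ± 0.33; edgeR adjusted p = 0.389). In the marrow it stood at 41.1, 29.3 and 24.3 CPM in AML, against 10.9, 29.7 and 16.7 CPM in control (0.72 ± 0.33; adjusted p = 0.101), and passed only without marrow control library 2 (adjusted p = 0.0117) among the fits that leave out a library. Values of Fabp5 carry an extra uncertainty, because near-identical copies of the gene exist in the mouse genome and counting could split reads between them. A copy in the files, Fabp5l2, had 0 to 2 counts per library.

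Markers of other cells moved beside Fabp4 and Lpl in the marrow. Of the 12 pericyte and smooth muscle genes, 10 were higher in marrow AML, and their summed share was 0.324% to 1.11% in marrow AML and 0.0201% to 0.0692% in marrow control. Of the 12 marrow reticular stroma genes, 8 were higher and 2 lower, with a summed share of 0.790% to 1.20% in marrow AML and 1.31% to 1.84% in marrow control. The adipocyte list held 0.0263% to 0.0376% in marrow AML and 0.0135% to 0.0180% in marrow control. Of its 10 genes, 6 were tested and 2 were higher, and the fat-cell genes Plin1, Cidec, Lep and Pck1 were at 0 in all 3 marrow AML libraries, as were Lep, Adig and Pck1 in all 3 marrow control libraries. Adipoq, the adipocyte hormone that marrow reticular cells also express, had 171 ± 44.4 CPM in marrow AML and 137 ± 31.1 CPM in marrow control (SD, n = 3; log2 fold change 0.32 ± 0.24; edgeR adjusted p = 0.303). The 14 monocyte and macrophage genes held 0.0562% to 0.0854% in marrow AML and 0.0278% to 0.0570% in marrow control. Of 12 pan-leukocyte genes, 9 were higher and 1, Rac2, was lower in marrow AML, and Ptprc, the common leukocyte antigen CD45, did not pass (1.77 ± 2.80 CPM in marrow AML and 5.20 ± 2.67 CPM in marrow control). The summed share of that list was 0.0697% to 0.0897% in marrow AML and 0.0142% to 0.0178% in marrow control. The part of these cells in the levels of Fabp4 and Lpl was not tested.

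The 3 genes of activation, mitochondrial entry and oxidation were lower in leukaemic marrow. Acsl1 (chr8:46471037-46536051, plus strand), the acyl-CoA synthetase, stood at 45.1, 30.4 and 35.3 CPM in marrow AML, against 124, 119 and 89.8 CPM in marrow control. Its groups lay apart, and the marrow AML level was 0.333 times that of marrow control (log2 fold change -1.59 ± 0.23; edgeR adjusted p = 0.000309). In the lung it stood at 44.6, 43.5 and 47.7 CPM in AML, against 54.2, 36.6 and 32.4 CPM in control (0.14 ± 0.22; 95% interval -0.35 to 0.63; adjusted p = 0.870). Marrow control was thus the only group in which Acsl1 stood apart from the other groups, whose libraries ran from 30.4 to 54.2 CPM.

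Acadl (chr1:66830839-66863277, minus strand), the long-chain acyl-CoA dehydrogenase, was lower with AML in the marrow and had higher values with AML in the lung. It stood at 146, 149 and 186 CPM in marrow AML, against 287, 287 and 259 CPM in marrow control, a level 1.73-fold lower (log2 fold change -0.79 ± 0.16; edgeR adjusted p = 0.00196). It stood at 258, 266 and 282 CPM in lung AML, against 152, 207 and 163 CPM in lung control. The groups lay apart in each organ, but the lung difference (0.63 ± 0.16; adjusted p = 0.0628) did not pass the test. It passed with DESeq2 (adjusted p = 0.000864), with limma-voom (0.00252), with the stricter filter of 5 CPM in 3 libraries (0.0375) and with a fit of only the lung libraries (0.0445).

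Cpt1a (chr19:3322334-3385733, plus strand), the carnitine palmitoyltransferase of the outer mitochondrial membrane, gave an uncertain marrow call, as Lpl did. It stood at 48.0, 63.5 and 95.6 CPM in marrow AML, against 133, 152 and 83.7 CPM in marrow control, so that the groups overlapped. The level was 1.78-fold lower (log2 fold change -0.83 ± 0.29; edgeR adjusted p = 0.0352). The call was lost without marrow control library 1 (adjusted p = 0.0930) or 2 (0.131), without marrow AML library 1 (0.107) or 2 (0.0917), with scaling by library totals (0.150), with the stricter expression filter (0.0814) and in a fit of the marrow libraries alone (0.136), and it held without marrow control library 3 or marrow AML library 3. In the lung it stood at 152, 168 and 172 CPM in AML, against 126, 208 and 154 CPM in control, with a log2 fold change of 0.01 ± 0.28 (95% interval -0.61 to 0.64; adjusted p = 0.995). Beside these 3 genes, 13 of 14 erythroid genes were lower in marrow AML, and their summed share given above was lower too. Its part in the levels of Acsl1, Cpt1a and Acadl was not tested. The antisense gene Gm45244 overlaps an exon of Acsl1, and strand was ignored in counting, but it had 25 counts over all libraries against 15882 for Acsl1.

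The test of the difference between organs separated 4 of the 10 genes, against 30.7% of all genes tested. The marrow effect exceeded the lung effect for Lpl by 1.29 ± 0.38 on the log2 scale (edgeR adjusted p = 0.0230) and for Fabp5 by 1.35 ± 0.47 (adjusted p = 0.0481). It was below the lung effect for Acsl1 (difference -1.73 ± 0.32; adjusted p = 0.00233) and for Acadl (difference -1.42 ± 0.22; adjusted p = 0.000985). The calls for Acsl1 and Acadl held under all 20 alternatives of this comparison. That for Lpl held under 17 and was lost without lung control library 2 (0.0513), lung AML library 1 (0.0600) or lung AML library 3 (0.0625). That for Fabp5 held under 8, and 10 of the 12 fits that leave out a library lost it, with adjusted p between 0.0534 and 0.112. For Cpt1a the difference was -0.84 ± 0.40 (adjusted p = 0.138), and without marrow AML library 3 it was -1.15 (adjusted p = 0.0355). The difference for Cd36 was -1.02 ± 0.81 (adjusted p = 0.379), and -2.14 (adjusted p = 0.0168) without the same library. For Gpihbp1 it was 1.33 ± 1.33 (adjusted p = 0.491), and for Fabp4 1.15 ± 0.74 (adjusted p = 0.270).

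The controls show how the genes were set in the 2 organs without leukaemia. Of the 10 genes, 3 were higher in marrow control than in lung control and 3 were lower, where 64.2% of all genes passed, 29.4% as higher and 34.7% as lower. Fabp4 was 19.5-fold higher in marrow control (log2 fold change 4.28 ± 0.59; edgeR adjusted p = 8.26e-05), Acsl1 2.70-fold higher (1.43 ± 0.23; adjusted p = 0.000218) and Acadl 1.60-fold higher (0.68 ± 0.16; adjusted p = 0.00285). Gpihbp1 was 32.9-fold lower in marrow control (-5.04 ± 1.08; adjusted p = 0.00174), Cd36 29.2-fold lower (-4.87 ± 0.67; adjusted p = 8.51e-05) and Fabp5 8.75-fold lower (-3.13 ± 0.36; adjusted p = 2.10e-05). Leaving out marrow control library 3 lowered the value for Fabp4 to 3.60, and leaving out lung control library 2 brought that for Gpihbp1 to -4.26. Pdk4, Lpl and Cpt1a overlapped between the control groups, and Angptl4 (0.83 ± 0.34; adjusted p = 0.0513) passed only without marrow control library 1 (0.0306) or lung control library 3 (0.0288) or with library totals (0.0476).

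Levels can be set against each other between genes only per length of transcript, here as CPM per kb of the longest coding transcript. In marrow AML, Fabp4 (338 ± 162 CPM per kb, SD, n = 3) and Angptl4 (227 ± 85.2) led, followed by Acadl (83.6 ± 11.7) and Lpl (55.4 ± 3.23), and Gpihbp1 was lowest (1.53 ± 1.81). In marrow control, Acadl led (145 ± 8.67 CPM per kb), followed by Fabp4 (71.5 ± 47.2), with Angptl4 at 32.5 ± 10.9 and Pdk4 at 5.75 ± 1.58. In lung AML, Cd36 (700.2 ± 50.0 CPM per kb) stood far above Acadl (140.2 ± 6.35), Angptl4 (139 ± 24.9) and Fabp5 (109.6 ± 21.0). In lung control, Cd36 (734 ± 251 CPM per kb) was followed by Gpihbp1 (206 ± 153) and Fabp5 (169.5 ± 30.9), and Fabp4 was lowest at 3.66 ± 1.15.

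Within a gene, the order of the 4 groups by mean CPM was marrow AML, lung AML, marrow control and lung control for Angptl4, and lung AML, marrow AML, lung control and marrow control for Pdk4. For both, the AML groups overlapped each other, the control groups overlapped each other, and AML and control lay apart. For Lpl and Cpt1a no neighbours in the order were apart. Acsl1 had marrow control apart at the top and the other 3 groups overlapping, and Acadl had marrow control and lung AML overlapping at the top and lung control and marrow AML overlapping below them. Lung groups overlapped each other for Cd36, far above the marrow groups, and marrow AML, marrow control and the lung groups formed 3 separate steps for Fabp4. For Gpihbp1 lung control lay apart above lung AML, and the other neighbours overlapped. For Fabp5 lung control, lung AML and the marrow groups formed 3 separate steps, with marrow AML and marrow control overlapping.

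The partners of the 10 genes are given whether or not they passed. The list counts that follow stand beside the shares over all genes tested by edgeR. These were 20.4% higher and 23.5% lower in marrow AML, and 1.17% and 1.16% in lung AML. Among the sister kinases of Pdk4, Pdk2 rose in marrow AML (54.7 ± 11.3 CPM, against 21.4 ± 4.33 CPM in marrow control; log2 fold change 1.36 ± 0.20; edgeR adjusted p = 0.000377). Pdk1 fell (52.9 ± 10.4 CPM, against 115 ± 22.4 CPM in marrow control; -1.12 ± 0.20; adjusted p = 0.000914), and so did Pdk3 (-1.28 ± 0.19; adjusted p = 0.000359). None of these 3 passed in the lung, where Pdk1 had 0.66 ± 0.19 (adjusted p = 0.105), and all 3 differed between organs by the interaction test (adjusted p = 0.0158 for Pdk2, 0.000912 for Pdk1 and 0.00242 for Pdk3). Pdp2, a phosphatase that reverses their action, rose in the marrow (0.86 ± 0.31; adjusted p = 0.0433), and its sister Pdp1 passed in neither organ (0.53 ± 0.33 in the marrow and 0.73 ± 0.33 in the lung). Of the 12 genes that control or form pyruvate dehydrogenase, 3 were higher and 5 lower in marrow AML, among the lower the subunit Pdhb (-1.25 ± 0.14; adjusted p = 6.14e-05), and Pdk4 was the 1 gene called in the lung by edgeR, where DESeq2 and limma-voom each called 2 as higher.

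Around the lipase, Lmf1, the endoplasmic reticulum factor that matures it, was higher in marrow AML (33.4 ± 3.41 CPM, against 9.42 ± 0.347 CPM in marrow control; log2 fold change 1.83 ± 0.19; edgeR adjusted p = 4.21e-05) and had -0.16 ± 0.18 (adjusted p = 0.784) in the lung. Apoe, a lipoprotein ligand of clearance receptors, rose in marrow AML (1.79 ± 0.21; adjusted p = 9.55e-05), and Scarb1, the receptor for high-density lipoprotein, fell (-2.16 ± 0.42; adjusted p = 0.00190). Lipg, the endothelial lipase, had 6 counts over the marrow AML libraries against 189 over the marrow controls (fitted log2 fold change -5.17 ± 0.73; adjusted p = 0.000286) and did not pass in the lung (0.26 ± 0.51; adjusted p = 0.910). Vldlr, a receptor that takes up remnants, passed in neither organ, with -0.71 ± 0.57 in the marrow and 0.90 ± 0.56 in the lung. In all, 6 of 18 tested lipoprotein lipolysis genes were higher and 2 lower in marrow AML, and in lung AML 1 was higher and 0 lower by edgeR (3 and 2 by DESeq2 and at an unadjusted p under 0.05). Without Lpl, Gpihbp1 and Angptl4, edgeR called 4 of 15 as higher and 2 as lower in marrow AML, and 0 in lung AML.

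By edgeR, the transport list held more rises than the other pathway lists in leukaemic marrow. Of 18 tested genes of fatty acid transport and binding, 10 were higher and 1 lower in marrow AML, with a median log2 fold change of 2.07 against -0.11 over all genes, and in lung AML 0 were higher and 2 were lower by edgeR (median -0.45 against 0.00). At an unadjusted p under 0.05, 1 was higher and 7 were lower in the lung, while DESeq2 called 1 as higher and 4 as lower and limma-voom called 1 and 5. Without Cd36, Fabp4 and Fabp5, edgeR called 9 of 15 as higher and 1 as lower in marrow AML, and 0 and 2 in lung AML. Slc27a1, a fatty acid transporter, had 35.1 ± 27.8 CPM in marrow AML and 5.50 ± 1.01 CPM in marrow control (2.68 ± 0.49; edgeR adjusted p = 0.00123), and Slc27a4, another, also rose (1.26 ± 0.44; adjusted p = 0.0384). Fabp3, the heart form of the binding proteins, fell in the marrow (-1.81 ± 0.55; adjusted p = 0.0201), had 1.87 ± 0.54 in the lung (adjusted p = 0.101) and differed between the organs (adjusted p = 0.00464). Cav1, the caveolar coat protein, had 249 ± 206 CPM in marrow AML and 27.0 ± 13.9 CPM in marrow control (3.20 ± 0.63; adjusted p = 0.00201), and 119.8 ± 43.3 CPM in lung AML and 951 ± 508 CPM in lung control (-2.99 ± 0.63; adjusted p = 0.0335). Cav2, its partner, also rose in the marrow and fell in the lung (2.68 ± 0.41 in the marrow and -1.98 ± 0.40 in the lung; adjusted p = 0.000451 and 0.0290). Cavin1, another coat protein, rose in the marrow (3.09 ± 0.37; adjusted p = 0.000111) and had -1.27 ± 0.35 (adjusted p = 0.0864) in the lung. Endothelium and pericytes are among the cell types that carry caveolar genes. Marker shares are given above for endothelium in both organs and for pericytes in the marrow. In the lung, the 12 pericyte and smooth muscle genes held 0.0547% to 0.0883% in AML and 0.0618% to 0.197% in control. The part of any cell type in these levels was not tested.

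**Figure D4:**
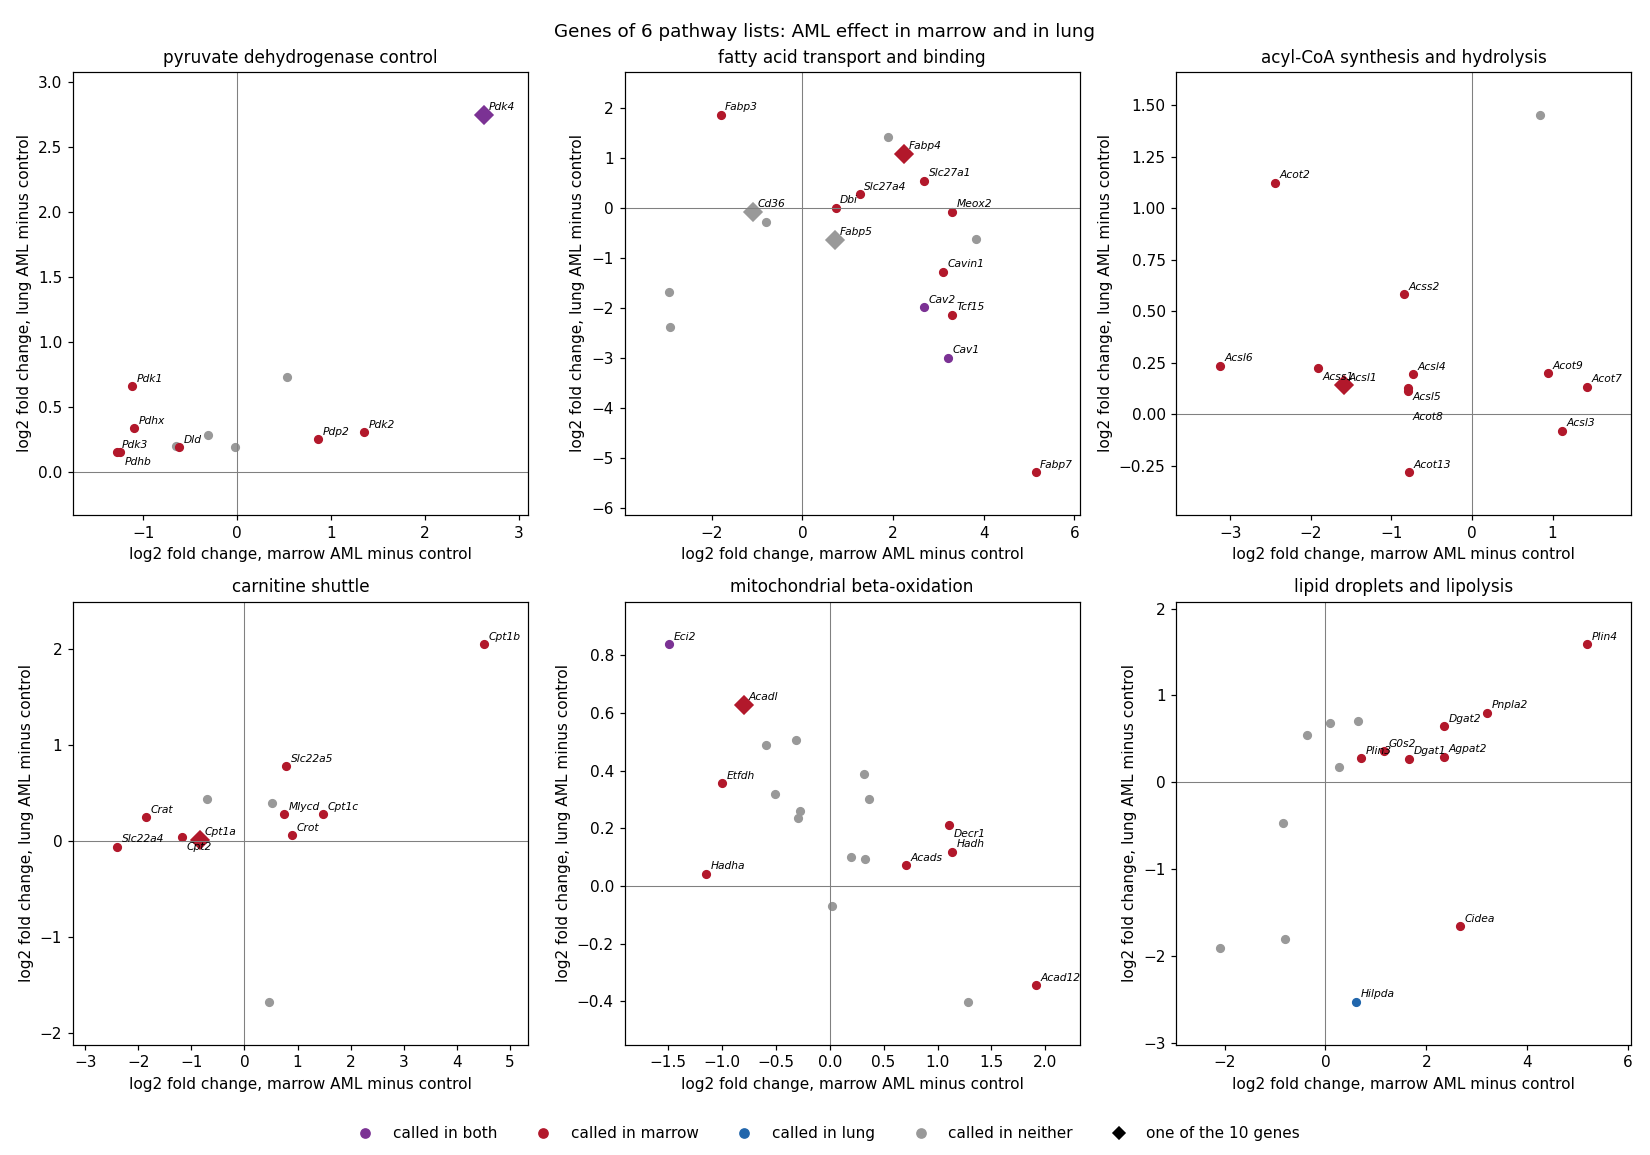
Log2 fold change with AML in the marrow (x axis) and in the lung (y axis) for the tested genes of 6 pathway lists, coloured by where they passed an adjusted p of 0.05, with diamonds for the 10 genes described; axes differ between panels. Most called genes are called in the marrow alone, Pdk4 lies in the upper right corner, and Cav1 and Cav2 lie at the lower right.

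Of 13 tested genes of acyl-CoA synthesis and hydrolysis, 9 were lower and 3 higher in marrow AML by edgeR (median log2 fold change -0.79). The list joins synthetases, which activate fatty acids, with thioesterases, which undo that step, and its count depended on the setting: 6 were lower and 2 higher with limma-voom, 3 and 3 with library totals, and 4 and 3 in a fit of the marrow libraries alone. In the lung 0 passed by edgeR or DESeq2 (median 0.19), while limma-voom called 2 as higher and 2 were higher at an unadjusted p under 0.05. Beside Acsl1, the acetyl-CoA synthetase Acss1 fell to 110.2 ± 25.9 CPM in marrow AML, against 413 ± 92.9 CPM in marrow control (-1.91 ± 0.22; edgeR adjusted p = 9.16e-05), and the thioesterase Acot2 fell as well (-2.44 ± 0.49; adjusted p = 0.00221), although Acot2 has a near-identical neighbour, Acot1, with which it may share reads. The thioesterases Acot7 (1.43 ± 0.20; adjusted p = 0.000227) and Acot9 (0.95 ± 0.23; adjusted p = 0.00699) rose.

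Of 12 carnitine shuttle genes, 5 were higher and 4 lower in marrow AML by edgeR, but 1 was higher and 4 lower with limma-voom. In the lung 0 passed by edgeR, while 1 was higher and 1 lower by DESeq2, by limma-voom and at an unadjusted p under 0.05. Cpt2, the inner-membrane partner of Cpt1a, fell (24.6 ± 5.96 CPM in marrow AML, against 55.5 ± 7.21 CPM in marrow control; log2 fold change -1.17 ± 0.20; edgeR adjusted p = 0.000715), as did the carnitine acetyltransferase Crat (-1.85 ± 0.24; adjusted p = 0.000183). Crot, which serves peroxisomes, rose (0.89 ± 0.19; adjusted p = 0.00352), as did the carnitine transporter Slc22a5 (0.78 ± 0.22; adjusted p = 0.0141), and Slc25a20, the carrier that exchanges acylcarnitine for carnitine, passed in neither organ (0.52 ± 0.22 in the marrow and 0.40 ± 0.22 in the lung).

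Of 19 mitochondrial beta-oxidation genes, 4 were higher and 4 lower in marrow AML by edgeR. Over all genes tested, 20.4% were higher and 23.5% lower. The counts of the list were 7 and 4 with library totals, 6 and 4 with the filter of 5 CPM, and 3 and 5 with limma-voom. In lung AML 1 was higher and 0 lower by edgeR, 3 and 0 by DESeq2, and 4 and 0 by limma-voom. Among the sister dehydrogenases of Acadl, Acadm (medium-chain) had a log2 fold change of 0.36 ± 0.25 and Acadvl (very long-chain) of -0.59 ± 0.24 in the marrow, and 0.30 ± 0.25 and 0.49 ± 0.24 in the lung, none past the test by edgeR. Hadha, a subunit of the trifunctional protein, fell (70.1 ± 9.41 CPM in marrow AML, against 155 ± 36.5 CPM in marrow control; -1.14 ± 0.20; adjusted p = 0.000952), whereas Hadh, the short-chain hydroxyacyl-CoA dehydrogenase, rose (1.13 ± 0.17; adjusted p = 0.000367). Decr1, a dienoyl-CoA reductase, rose (1.11 ± 0.20; adjusted p = 0.00103), and Etfdh, which passes electrons on to the respiratory chain, fell (-0.996 ± 0.157; adjusted p = 0.000507). Eci2, an enoyl-CoA isomerase, fell in the marrow and rose in the lung. It had 58.2 ± 1.42 CPM in marrow AML and 164 ± 21.3 CPM in marrow control (-1.49 ± 0.14; adjusted p = 2.99e-05), and 113 ± 3.72 CPM in lung AML and 63.2 ± 7.09 CPM in lung control (0.84 ± 0.14; adjusted p = 0.0145). The difference between organs for Eci2 was -2.33 ± 0.20 (adjusted p = 8.14e-05).

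Pparg, the PPAR best known from adipocytes, rose in the marrow, with 72.1 ± 13.7 CPM in AML and 12.7 ± 5.87 CPM in control (log2 fold change 2.51 ± 0.41; edgeR adjusted p = 0.000615). In the lung it had 7.69 ± 3.16 CPM in AML and 8.13 ± 2.18 CPM in control (-0.08 ± 0.39; adjusted p = 0.970), and the difference between organs passed (2.59 ± 0.56; adjusted p = 0.00530). Ppara and its coactivator Ppargc1a were called higher in marrow AML on few counts, with 155 counts over marrow AML against 9 over marrow control for Ppara and 216 against 16 for Ppargc1a, and Ppard passed in neither organ. Of 25 tested PPAR target genes, which include 8 of the 10 genes described, 7 were higher and 9 lower in marrow AML (4 and 10 by limma-voom), and 2 higher and 0 lower in lung AML by edgeR (4 and 0 by DESeq2, 8 and 0 by limma-voom, 7 and 0 at an unadjusted p under 0.05). Without those 8, edgeR called 3 of 17 tested targets as higher and 6 as lower in marrow AML, and 0 in lung AML. The 2 called in the lung were Pdk4 and Angptl4. Rxra, the partner with which PPARs bind DNA, rose in the marrow (1.67 ± 0.34; adjusted p = 0.00225), and Lpin1, a coactivator and phosphatidate phosphatase, fell (-1.41 ± 0.29; adjusted p = 0.00268), as did the coactivator Med1 (-1.08 ± 0.26; adjusted p = 0.00578). Txnip, a thioredoxin-binding protein, rose (1.51 ± 0.38; adjusted p = 0.00773), and so did Vnn1, a pantetheinase (3.61 ± 0.81; adjusted p = 0.00423). Plin2, the lipid droplet coat, passed in neither organ, with 0.09 ± 0.16 in the marrow and 0.68 ± 0.16 (adjusted p = 0.0547) in the lung.

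Part of the storage list was higher in leukaemic marrow. Of 16 tested genes of lipid droplets and lipolysis, 8 were higher and 0 lower in marrow AML, with a median log2 fold change of 0.68. At an unadjusted p under 0.05 and with DESeq2 the counts were 8 and 0, and with limma-voom they were 4 and 1. Pnpla2, the lipase that opens stored triglyceride, had 446 ± 227 CPM in marrow AML and 48.2 ± 7.30 CPM in marrow control (3.21 ± 0.33; edgeR adjusted p = 4.62e-05), and Agpat2, an acyltransferase of glycerolipid synthesis, rose as well (2.35 ± 0.19; adjusted p = 1.74e-05). In the lung, Hilpda, an inhibitor of that lipase, was the 1 gene of the list that passed by edgeR, as lower (-2.52 ± 0.49; adjusted p = 0.0258), while DESeq2 called 1 as higher and 1 as lower and limma-voom 4 and 2. Of 14 peroxisomal oxidation genes, 4 were higher and 1 lower in marrow AML by edgeR, against 8 and 1 with library totals, and 3 and 1 with limma-voom. In the lung 0 passed by edgeR, 1 was lower by DESeq2, 2 were higher and 1 lower by limma-voom, and 1 was higher and 1 lower at an unadjusted p under 0.05. Decr2 (1.27 ± 0.26; adjusted p = 0.00235) and Pex11a (1.63 ± 0.37; adjusted p = 0.00467) rose in the marrow, and Ehhadh, the bifunctional enzyme of the peroxisome, fell (-1.49 ± 0.35; adjusted p = 0.00515). Among 14 fatty acid synthesis genes, 4 were higher and 1 lower in marrow AML. Elovl5, an elongase (2.39 ± 0.33; adjusted p = 0.000235), and Me1, malic enzyme (1.74 ± 0.20; adjusted p = 7.18e-05), rose, and Fads2, a desaturase, fell (-0.79 ± 0.23; adjusted p = 0.0183). The elongase Elovl1 was the 1 called in the lung, as lower by edgeR (-0.96 ± 0.15; adjusted p = 0.0115).

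For each of the 10 genes, the 2 genes with the most similar pattern were found among 11286 genes, as the smallest root mean square difference of log2 CPM, centred on the mean of the 12 libraries. Depth and cell makeup are shared by all genes of a library, so likeness is a description. Nearest to Pdk4 were Fkbp5, a co-chaperone of steroid receptors (difference 0.41), and Adarb1, an RNA-editing enzyme (0.54). Fkbp5 had 72.9 ± 40.2 CPM in marrow AML and 16.6 ± 3.70 CPM in marrow control, and 109.1 ± 19.3 CPM in lung AML and 12.8 ± 2.80 CPM in lung control. Nearest to Angptl4 were Gpx3, the extracellular glutathione peroxidase (0.40), and Plekhf1 (0.55). Gpx3 had 7295 ± 2250.4 CPM in marrow AML and 672 ± 220.0 CPM in marrow control, and 4402 ± 1511 CPM in lung AML and 635 ± 355 CPM in lung control. For Gpihbp1 they were Tek, the angiopoietin receptor of endothelium (0.54), and Tspan18 (0.56), for Cd36 Ppp1r9a (0.52) and Prex2 (0.56), and for Fabp4 Mab21l2 (0.69) and Podnl1 (0.73). Acsl1 lay nearest to Tkt, the transketolase of the pentose phosphate pathway (0.18), and Pccb, a subunit of propionyl-CoA carboxylase (0.19). Acadl lay nearest to Med14 (0.17) and Stt3b (0.17), Cpt1a to Ube2z (0.14) and Ulk1 (0.16), Lpl to Stn1 (0.18) and Ankmy2 (0.21), and Fabp5 to Pxn (0.38) and Jcad (0.38). The differences are small where a gene itself varied little, since the SD of the centred log2 level was 0.39 for Acadl and 2.95 for Cd36.

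The 10 genes together held 0.177% to 0.233% of the counts in marrow AML, 0.0894% to 0.0935% in marrow control, 0.321% to 0.357% in lung AML and 0.252% to 0.478% in lung control. In the marrow the AML libraries lay apart above the controls, and in the lung the AML range lay within the control range. Single genes carried these sums: Angptl4 gave 54869 counts over the marrow AML libraries and 6062 over the marrow controls, and Cd36 gave 197298 over lung AML and 191909 over lung control. Acsl1, Cpt1a and Acadl moved against the marrow sum.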

How the data were processed

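Low-input libraries of total RNA (12, 3 per group) were sequenced, per the labels. Per the submitters' processing notes, bcl2fastq, STAR and mm10 were used; versions are not stated there, nor is the gene annotation. The authors deposited raw counts per gene symbol, not normalised, as whole numbers, and counting ignored strand, per the file names. Totals were 12.8 to 39.2 M counts, and every symbol row named a gene.

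Counts were tested in R 4.3.3 with edgeR 4.0.16 (robust quasi-likelihood F test, 12 libraries, 4 groups, 8 residual degrees of freedom, minimum count 10 and total 15, TMM scaling, Benjamini-Hochberg over 18147 genes, called under 0.05). CPM are TMM-scaled counts, log2 fold changes are fitted with their SE, and intervals are 95%. Positions and lengths came from GENCODE M21 (GRCm38); the longest coding transcript replaced the merged exons first planned. The script was tested on simulated data. Alternatives used DESeq2 1.42.0, limma 3.58.1, other scalings and filters, a replicate block and each library left out, and pathway counts under every setting were added after seeing the data.

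The genes, partners and lists were chosen with earlier results of these data known. Named, by rule, were all 10 genes, fixed partners, called genes of smallest p in each list (2 per direction, the leading ones in the marrow and lung being printed), and the nearest patterns among genes of at least 10 CPM in a group. One of the partners is not reported here. No test of lists was made, and list counts include those of the 10 genes that belong to a list, except where stated.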

Additional observations from a re-analysis of the deposited data

Results flagged for a closer look

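In 4 of the 10 genes the AML effect differed between marrow and lung by the interaction test of edgeR, against 30.7% of all genes tested. The count is near that share, so the values are given gene by gene. Lpl had a marrow effect that exceeded the lung effect by 1.29 on the log2 scale, and Fabp5 one that exceeded it by 1.35. Acsl1 had a difference of -1.73 and Acadl one of -1.42, each lower in the marrow. The calls for Acsl1 and Acadl held under all 20 alternatives, those for Lpl under 17 and those for Fabp5 under 8. For Acadl every AML library lay below every control library in the marrow and above every control library in the lung. Groups of 3 libraries were too small for a search for outlying samples.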

How the results depend on the processing

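With 3 libraries a group, single libraries decided several calls, as given beside each gene. Among values of single genes under alternatives, 580 kept direction and side of the threshold, 28 lost a call, 21 gained one and 21 changed sign, none of the last in a called value. In the lung, 423 genes were called by edgeR, against 1643 by DESeq2 (724 higher, 919 lower), 2282 by limma-voom (1007 and 1275) and 1239 with only the lung libraries, and from 72 to 325 with a library left out; 4 of the 10 genes were called by DESeq2 and 4 by limma-voom. With a library left out, 2 to 6 of the 10 were called in the difference between organs, where 30.7% of all genes passed with every library kept.

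Scaling by library totals moved the median fold change over all genes (log2) to 0.16 in the marrow, 0.30 in the difference and -0.07 in the lung, and the share of calls that were higher to 61.2% (from 46.4%), 66.6% (from 47.5%) and 40% (from 50.1%); with the filter of 5 CPM it was 57.0% in the marrow. Sign changed for Cpt1a in the lung with library totals (-0.0692) and with only the lung libraries (-0.0014), for Pdk4 in the difference with library totals (0.27) and the 5 CPM filter (0.0791), and for Angptl4 in the difference with library totals (0.30), limma-voom (0.0417) and the 5 CPM filter (0.0692). With a library left out, the ranges that crossed 0 were -0.15 to 0.23 for Cpt1a, -0.29 to 0.22 for Cd36 and -0.0025 to 0.38 for Acsl1 in the lung, and -0.39 to 0.14 for Pdk4, -0.45 to 0.16 for Angptl4 and -0.42 to 2.90 for Gpihbp1 in the difference. The causes were not tested.

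Deviations of same-numbered libraries correlated across genes at -0.12, 0.02 and -0.10 in the marrow. The correlations were 0.15, -0.03 and -0.16 in the lung and 0.04, 0.18 and -0.01 between controls. The labels do not say whether a replicate number marks a shared mouse or batch, and so few values cannot settle it. Marrow AML and lung AML were not compared in this way, and the main fit treated all libraries as independent. With a replicate block, 7253, 331, 4924 and 11255 genes were called in the marrow, the lung, the difference and the controls, and 8, 3, 3 and 6 of the 10 genes.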
